A study of Mus musculus with 12 samples.

Results

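Vascular endothelial and mural cell genes of the mouse retina were examined, and they comprised 34 of the 54532 gene identifiers in the count and FPKM tables. They were chosen by symbol, with earlier results of these data known. They hold 26 endothelial genes and 8 mural genes (pericyte and smooth muscle). The endothelial ones cover tight junctions, junction and surface proteins, VEGF and TIE receptors, barrier transporters, adhesion and activation, and 1 transcription factor. Retinal RNA had been sequenced in 12 libraries from 4 groups with 3 libraries each, all from wild type female C57BL/6 mice aged 13 weeks. SHAM mice were sham controls, and what the sham procedure contained was not stated. MOG mice had been immunized with the MOG35-55 myelin peptide in complete Freund's adjuvant with mycobacteria, together with pertussis toxin, which gives experimental autoimmune encephalomyelitis (EAE) with optic neuritis (ON). GB20 and GV16 mice had received the same immunization and were needled at the acupoint GB20 or at the control acupoint GV16 under xylazine and ketamine. It was not stated whether SHAM or MOG mice were anaesthetized as well, so needling and anaesthesia cannot be told apart, nor whether retinas of several mice were pooled in 1 library. The p-values therefore measure the spread between these libraries.

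Retinal capillaries form the inner blood-retina barrier. Their endothelial cells are sealed by tight junctions, carry transporters in place of free passage, and are covered by pericytes, while arterioles are wrapped in smooth muscle. In inflammation, endothelial cells display adhesion molecules that bind leukocytes, and the barrier is known to be affected in EAE.

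Total counts per library lay between 15860278 and 19194280, and 18299 of the 34538 genes with a count were abundant enough to be tested. Values are CPM (counts scaled to a common library size by TMM) unless stated otherwise, and differences are log2 fold changes with their standard error (SE). As a check of the tissue, the summed CPM of 5 rod genes lay between 49331 and 55492 in every library. Of the 34 vascular genes, 33 passed the expression filter, 25 of them endothelial and 8 mural. Selp, the P-selectin that endothelial cells display on activation, had 1 count in GB20 replicate 3. It had 0 counts in each of the other 11 libraries, where a count of 0 allows up to 3 counts. It was not tested.

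Compared per gene length, the vascular genes spanned a wide range of levels. Mean FPKM over the 12 libraries was highest for Tjp1 (18.9), the tight junction scaffold ZO-1 that many cell types use, followed by the VEGF receptor Kdr (15.3), the pericyte signalling regulator Rgs5 (12.1) and Heg1 (12.1), a transmembrane protein of endothelial junctions. Cldn5, the main claudin of barrier endothelium, followed at 7.49 and the VEGF receptor Flt1 at 6.73. At the other end were Icam1 (0.231), the sialomucin Emcn (0.211) and the pericyte proteoglycan Cspg4 (0.131). In this order the ranges of neighbouring genes over the 12 libraries overlapped throughout, except between Cspg4 and Selp. Of the genes with a count, 92.4% had a level below that of Tjp1, 61.9% below that of the endothelial marker Pecam1 and 35.8% below that of Cspg4. Among the 33 tested genes the spread between libraries of 1 group, as a coefficient of variation of CPM, ran from 6.00% for Flt1 to 42.4% for Icam1. Which retinal cells held this RNA was not tested, for Kdr and Heg1 as for Tjp1.

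**Figure D1:**
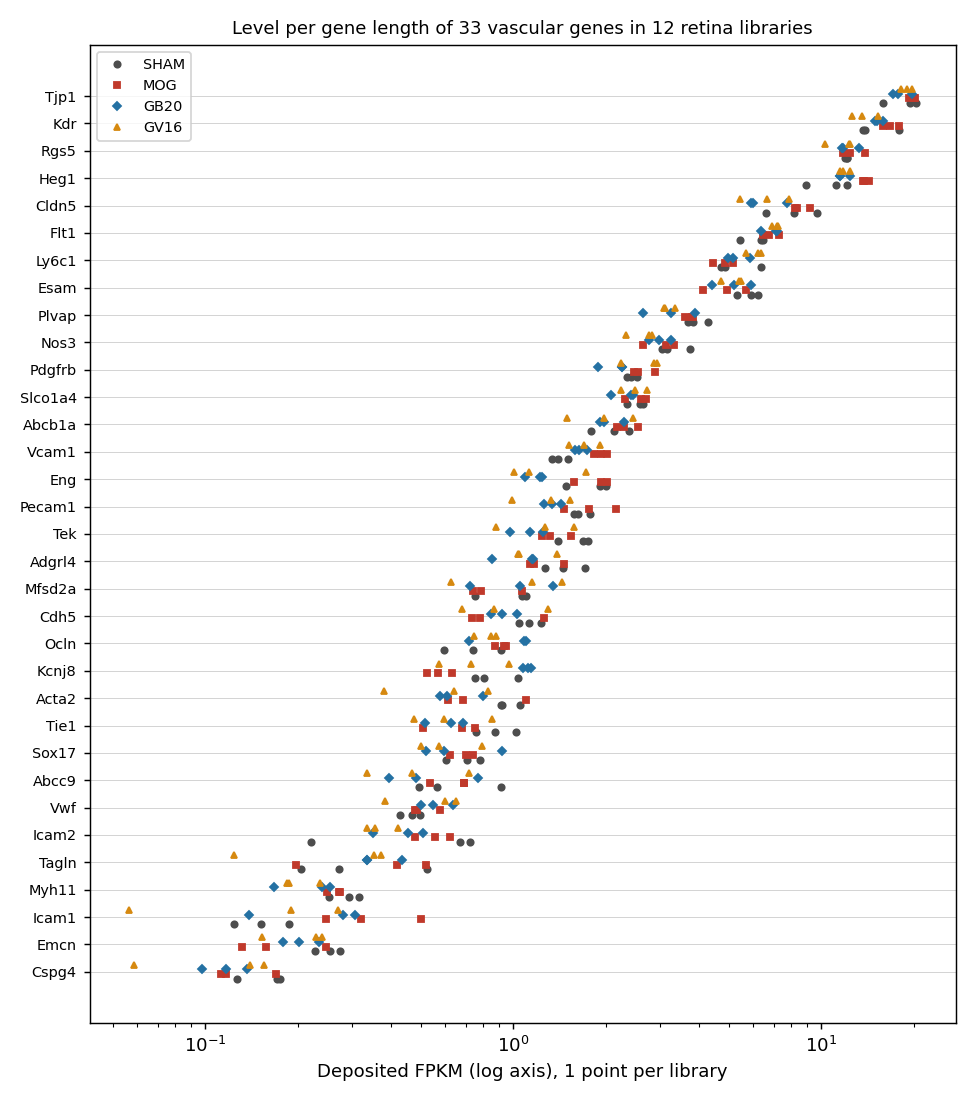
Deposited FPKM (log axis) of the 33 tested vascular genes, ordered by their mean, with 1 point per library and a colour and shape per group. Levels run from Tjp1 with a mean of 18.9 down to Cspg4 with 0.131, and the 4 groups lie within the scatter of each other for most genes.

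Heg1 (ENSMUSG00000075254) lies on chromosome 16 from 33684370 to 33771576 of GRCm38 and is annotated as protein-coding with 8 transcripts. As examples of promoter letters, of a gene called below (Heg1) and of 2 windows with more than 1 match (Eng and Flt1), 250 bases before the RefSeq gene start (GRCm38.p6) are printed for Heg1 (chr16:33684216-33684465, plus strand), Eng (chr2:32646345-32646594, plus strand) and Flt1 (chr5:147726012-147726261, minus strand), 5′ to 3′ on the gene's strand. Capitals mark AGGAAG, a core of ETS factor motifs, or its reverse complement.
Heg1: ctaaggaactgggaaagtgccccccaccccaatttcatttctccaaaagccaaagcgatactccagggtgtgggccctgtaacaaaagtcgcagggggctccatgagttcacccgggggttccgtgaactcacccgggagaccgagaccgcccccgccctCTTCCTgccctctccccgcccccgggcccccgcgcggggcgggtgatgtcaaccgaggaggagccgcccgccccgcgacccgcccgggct
Eng: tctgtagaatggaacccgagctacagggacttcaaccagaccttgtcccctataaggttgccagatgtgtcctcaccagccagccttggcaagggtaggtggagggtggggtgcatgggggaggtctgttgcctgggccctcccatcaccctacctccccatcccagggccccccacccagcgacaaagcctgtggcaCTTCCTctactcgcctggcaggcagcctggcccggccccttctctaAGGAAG
Flt1: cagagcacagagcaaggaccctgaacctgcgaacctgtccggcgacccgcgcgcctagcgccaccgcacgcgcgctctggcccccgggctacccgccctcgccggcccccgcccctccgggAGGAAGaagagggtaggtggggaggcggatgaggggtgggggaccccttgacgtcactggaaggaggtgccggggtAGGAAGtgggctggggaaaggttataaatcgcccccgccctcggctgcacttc
AGGAAG stood once in the Heg1 window, where it is on the opposite strand, and 2 times each in the windows of Eng and Flt1. The Heg1 window ends at 33684465, past the annotated gene start at 33684370. Its last part, with the marked bases, therefore lies inside the gene as annotated here. Promoters were given for 22 of the 34 genes. On either strand, AGGAAG was in the 250 bases of 10 of these 22 genes (45.5%), namely Abcb1a, Adgrl4, Emcn, Eng, Flt1, Heg1, Ly6c1, Selp, Slco1a4 and Tie1, and in 32.3% of the 27025 genes with a promoter (29.5% of 32851 promoters). CGGAAG was in 2 genes (Tie1 and Tjp1, against 15.3% of all genes), TATAAA in 2 (Flt1 and Ly6c1, against 14.3%) and the CArG box, which serum response factor binds in smooth muscle genes, in 0 (against 1.62%). A match of letters is not a site, and none of these shares was tested.

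In MOG vs. SHAM retinas, the comparison that asks what immunization changed, 2 vascular genes rose and none fell. Both are from the endothelial part of the list, Heg1 and Vcam1, the adhesion molecule that binds leukocyte integrins. Which retinal cells held their RNA was not tested. Under the quasi-likelihood test of edgeR, adjusted after Benjamini-Hochberg over all genes, these were 2 of 33 tested, where 1.34% of all tested genes were called. In whole retina, fewer cells of a type and less RNA per cell cannot be told apart. At an unadjusted p under 0.05 there were 5 (Flt1, Heg1, Icam1, Kcnj8 and Vcam1), against a background of 13%, and 1 of them, Kcnj8, was lower (against 6.78%). All MOG libraries lay above all SHAM libraries for 4 genes (Flt1, Heg1, Icam1 and Vcam1, against 7.87% of all genes) and below them for 2 (Kcnj8 and Tie1, against 8.34%). The median log2 fold change of the 33 genes was 0.0086, with 16 of them below 0 (50.5% of all genes were below 0). Without SHAM replicate 1 that median was -0.092.

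Heg1, which anchors the CCM signalling complex at endothelial junctions, was counted at 144, 115 and 155 CPM in SHAM and at 175, 176 and 183 CPM in MOG. No SHAM library reached the lowest MOG library, and SHAM replicate 2 was the lowest of all 12. The values in GB20 (148, 147 and 158 CPM) and GV16 (158, 148 and 150 CPM) lay below every MOG library and within or just above the range of SHAM. Between MOG and SHAM it differed by 0.37 on the log2 scale (SE 0.0844, 95% interval 0.19 to 0.54), which is 29.1% higher, with an adjusted p of 0.0263 (edgeR, Benjamini-Hochberg). The call was lost when SHAM replicate 1 (0.40) or 2 (0.26), or MOG replicate 2 (0.38) or 3 (0.35), was left out, and by edgeR on the 6 libraries alone and by limma on FPKM. Heg1 has a long transcript (12728 exonic bases), and over 12763 well counted genes the fold change of this comparison went up with exon length (Spearman correlation across genes 0.32, median 0.066 for genes with over 8 kb of exon). With that trend removed, an alternative added after seeing the data, Heg1 was 0.29 higher (adjusted p = 0.0070, edgeR). The trend ran the other way in GB20 vs. MOG (-0.35) and GB20 vs. GV16 (-0.34), and was weaker in GV16 vs. MOG (-0.13). With it removed, Heg1 went from -0.24 to -0.16 and Kdr from -0.14 to -0.093 in GB20 vs. MOG. Shorter genes moved the other way there, Cldn5 (1416 exonic bases) from -0.40 to -0.49 and Plvap (1987) from -0.20 to -0.28. On the other strand 2.5% of the exons of Heg1 overlap Gm15657.

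Vcam1 (ENSMUSG00000027962, chromosome 3, 116109949 to 116129688, minus strand, protein-coding) was counted at 12.5, 13.5 and 11.98 CPM in SHAM libraries, 16.3, 18.1 and 17.2 CPM in those of MOG, 15.7, 14.1 and 14.5 CPM in those of GB20 and 17.1, 13.6 and 15.1 CPM in those of GV16. SHAM held the 3 lowest values of the 12 libraries. Between MOG and SHAM the log2 fold change was 0.44 (SE 0.110, 95% interval 0.22 to 0.67, adjusted p = 0.0414 by edgeR with Benjamini-Hochberg adjustment), or 36.0% higher. Its call was lost when SHAM replicate 1 (0.43) or 3 (0.40), MOG replicate 1 (0.48), 2 (0.41) or 3 (0.44), GB20 replicate 1 or 3 (0.44 each) or GV16 replicate 3 (0.44) was left out. It was also lost by DESeq2 and edgeR on the 6 libraries, by limma on FPKM and with the length trend removed (0.40, adjusted p = 0.0649 by edgeR).

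**Figure D2:**
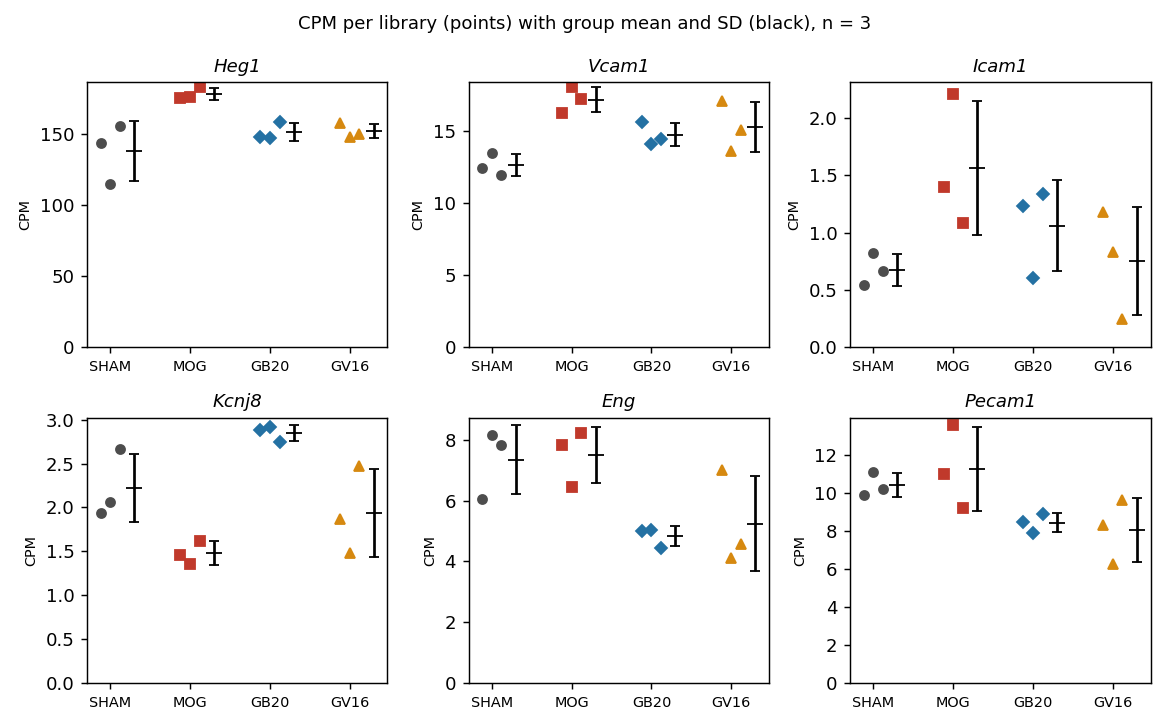
CPM of Heg1, Vcam1, Icam1, Kcnj8, Eng and Pecam1 in each library (points), by group, with the group mean and SD in black (n = 3), each axis starting at 0. For Heg1 the 3 MOG libraries, at 175 to 183 CPM, lie above the other 9, and for Kcnj8 the 3 GB20 libraries do.

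Icam1, the other inducible ligand of leukocyte integrins, had the largest estimate among the vascular genes in this comparison. It was scarce, at 0.545, 0.823 and 0.666 CPM in SHAM libraries, 1.40, 2.21 and 1.08 in those of MOG, 1.24, 0.608 and 1.34 in those of GB20 and 1.18, 0.836 and 0.248 in those of GV16. MOG did not overlap SHAM, while both needled groups overlapped MOG and SHAM. On the log2 scale MOG exceeded SHAM by 1.19 (SE 0.422, 95% interval 0.32 to 2.07) and did not pass the test (adjusted p = 0.218, edgeR). On the other strand 11.7% of its exons overlap Gm47079. Among the other adhesion and activation genes, the endothelial nitric oxide synthase Nos3 had the highest FPKM. Its CPM was 15.7, 12.6 and 13.2 in SHAM libraries, 13.8, 13.1 and 10.99 in those of MOG, 12.5, 13.6 and 11.4 in those of GB20 and 9.62, 11.8 and 11.5 in those of GV16, with a log2 fold change of -0.13 (SE 0.126) in MOG vs. SHAM. GV16 lay below SHAM in every library, although Nos3 shares 25.2% of its exonic bases with Gm15587 on the other strand.

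Neither the tight junctions nor the junction and surface genes other than Heg1 passed the test in MOG vs. SHAM. Tjp1 was counted at 153, 125 and 160 CPM in SHAM and 151, 158 and 159 CPM in MOG (an estimate of 0.09 log2 units, SE 0.0817). In GB20 it had 141, 134 and 154 CPM and in GV16 149, 143 and 155 CPM, so that all 4 groups overlapped. The 3 tight junction genes had estimates between 0.08 (Cldn5) and 0.29 (Ocln). Emcn, a sialomucin of capillary and venous endothelium, was at 1.39, 1.23 and 1.498 CPM in SHAM and 1.34, 0.860 and 0.721 CPM in MOG. Its log2 fold change was -0.49 (SE 0.316), and 1 MOG library lay inside the SHAM range. The estimate was -0.80 without MOG replicate 1 and -0.31 without MOG replicate 3. GB20 had 0.979, 1.28 and 1.096 CPM and GV16 had 1.24, 0.836 and 1.30 CPM of it, both overlapping SHAM.

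Among the receptors, Kdr (VEGFR2, the main signalling receptor for VEGF-A) was counted at 163, 124 and 126 CPM in SHAM and 152, 145 and 163 CPM in MOG (an estimate of 0.15 log2 units, SE 0.0920). The GB20 libraries held 139, 135 and 143 CPM and the GV16 libraries 139, 115 and 123 CPM, all below the 3 MOG libraries. Flt1, the VEGF receptor that mainly binds the ligand away, lay higher in each MOG than in each SHAM library. Its log2 fold change was 0.17 (SE 0.0758), with an adjusted p of 0.351 by edgeR. Flt1 has 13504 exonic bases, and with the exon length trend removed it was at 0.079. In GV16 vs. SHAM that removal took it from 0.22 to 0.15. Tie1, an orphan partner of the angiopoietin receptor Tek, had 3.75, 5.06 and 4.33 CPM in SHAM and 3.69, 3.38 and 2.52 CPM in MOG. All MOG libraries lay below SHAM, at -0.45 on the log2 scale (SE 0.218) with an adjusted p of 0.385 by edgeR. The GB20 values were 2.58, 3.41 and 3.11 CPM and those of GV16 4.22, 2.96 and 2.35 CPM.

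Of the barrier transport genes, Plvap had the highest FPKM. It forms the diaphragms of fenestrated endothelium, is low in mature barrier vessels and is abundant in the choroid. Its CPM was 7.39, 8.59 and 7.71 in SHAM libraries, 7.22, 7.62 and 7.69 in those of MOG, 6.54, 7.78 and 5.24 in those of GB20 and 6.15, 6.24 and 6.69 in those of GV16. MOG overlapped SHAM (log2 fold change -0.07, SE 0.145), while the GV16 libraries were below both. The drug efflux pump Abcb1a (0.15), the organic anion carrier Slco1a4 (0.01) and the lipid carrier Mfsd2a (-0.17), which restrains transcytosis, did not pass the test either. Sox17, a transcription factor of arterial endothelium, was at 2.91, 3.41 and 3.77 CPM in SHAM libraries, 3.36, 3.56 and 3.00 in those of MOG, 2.52, 2.86 and 4.39 in those of GB20 and 3.79, 2.76 and 2.42 in those of GV16. The 4 groups overlapped. On the other strand 16.8% of the exonic bases of Sox17 overlap Gm37587 and 10.1% of those of Abcb1a overlap Gm42686, so both counts are uncertain.

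No mural gene passed the test in MOG vs. SHAM, and the median log2 fold change of the 8 was -0.080. Rgs5, the most abundant of them per length, was at 54.7, 55.6 and 55.6 CPM in SHAM libraries, 63.1, 54.3 and 56.8 in those of MOG, 61.0, 53.7 and 53.2 in those of GB20 and 56.3, 47.1 and 56.7 in those of GV16. All 4 groups overlapped, and the interval of its log2 fold change in MOG vs. SHAM was -0.10 to 0.25. Kcnj8, the pore subunit of the vascular KATP channel, had 1.94, 2.06 and 2.66 CPM in SHAM libraries, 1.46, 1.35 and 1.62 in those of MOG, 2.88, 2.92 and 2.74 in those of GB20 and 1.86, 1.48 and 2.48 in those of GV16. MOG held values below every SHAM library and GB20 values above every other library. Its estimate in MOG vs. SHAM was -0.59 on the log2 scale (SE 0.248), with an adjusted p of 0.303 by edgeR.

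The smooth muscle genes were scarce. Acta2, the smooth muscle actin, had 1.63, 1.65 and 1.89 CPM in SHAM libraries, 1.23, 1.11 and 1.98 in those of MOG, 1.44, 1.09 and 1.04 in those of GB20 and 0.683, 1.16 and 1.49 in those of GV16. Myh11, the smooth muscle myosin, had 2.24, 2.41 and 1.94 CPM in SHAM libraries, 2.07, 1.90 and 2.10 in those of MOG, 1.29, 1.95 and 1.83 in those of GB20 and 1.80, 1.41 and 1.42 in those of GV16. For both, the SHAM libraries lay above all GV16 libraries and overlapped MOG. Tagln, an actin-binding protein, was at 0.545, 0.412 and 1.05 CPM in SHAM libraries, 0.392, 1.04 and 0.841 in those of MOG, 0.876, 0.669 and 0.670 in those of GB20 and 0.248, 0.707 and 0.743 in those of GV16, with all groups overlapping. Of its exonic bases 62.4% are shared with the antisense Gm48529, which leaves its counts uncertain.

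**Figure D3:**
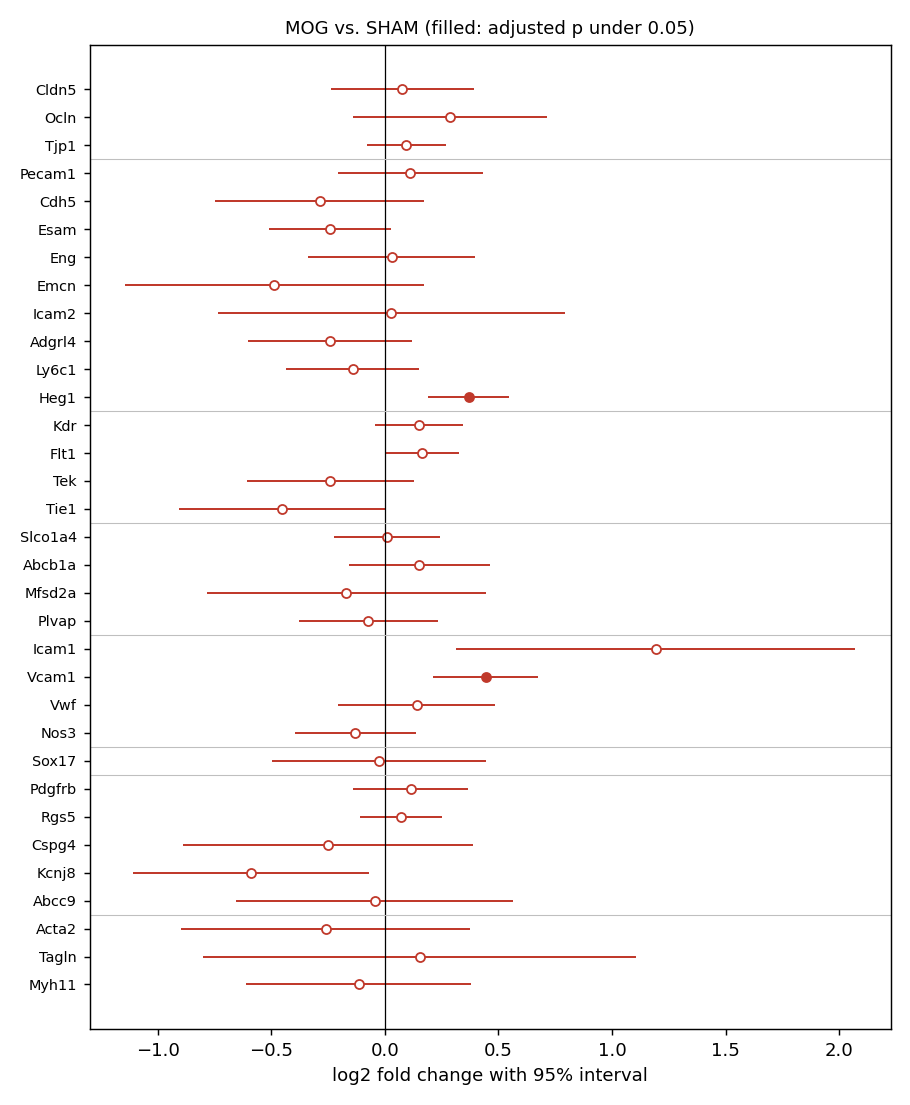
log2 fold change of MOG vs. SHAM with its 95% interval for each of the 33 tested vascular genes, grouped by role from tight junction (top) to smooth muscle (bottom). Filled points passed the adjusted threshold of 0.05, which were Heg1 (0.37) and Vcam1 (0.44). Icam1 has the largest estimate (1.19) with an interval from 0.32 to 2.07.

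The comparison of GB20 with MOG asks what needling at GB20 changed in immunized mice, and no vascular gene passed its test (0 of 33, where 0.24% of all genes did, edgeR with Benjamini-Hochberg adjustment). DESeq2 on all 12 libraries called 0 as well, and DESeq2 on the 6 libraries alone called Heg1 (adjusted p = 0.0329). At an unadjusted p under 0.05 there were 6 (Cldn5, Eng, Heg1, Kcnj8, Pdgfrb and Pecam1), against 8% of all genes, and all but Kcnj8 were lower (5, against 3.89%). GB20 lay entirely below MOG for 7 genes (Cldn5, Eng, Heg1, Kdr, Pdgfrb, Pecam1 and Vcam1, against 7.71% of all genes) and entirely above it for Kcnj8 (against 7.96%). The estimates were below 0 for 24 of 33 genes, compared with 49.8% of all genes, and their median was -0.14. The same libraries of MOG enter this comparison and MOG vs. SHAM.

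Kcnj8 had the largest estimate, 0.94 on the log2 scale (SE 0.241, 95% interval 0.45 to 1.44) with an adjusted p of 0.165 by edgeR, at 1.35 to 1.62 CPM in MOG and 2.74 to 2.92 CPM in GB20. Abcc9, which encodes the other subunit of that channel, had an estimate of -0.23 (SE 0.291). Eng, the endothelial co-receptor for BMP9 and TGF-β, was counted at 6.05, 8.17 and 7.82 CPM in SHAM libraries, 7.84, 6.45 and 8.23 in those of MOG, 4.997, 5.05 and 4.45 in those of GB20 and 7.02, 4.11 and 4.58 in those of GV16. Each GB20 library lay below each SHAM and MOG library, and so did GV16 replicates 2 and 3. The log2 fold change of GB20 vs. MOG was -0.63 (SE 0.182, 95% interval -1.01 to -0.26, adjusted p = 0.273 by edgeR). Heg1 had -0.24 (SE 0.0842, adjusted p = 0.467 by edgeR), Vcam1 -0.22 and Icam1 -0.54. Icam1 was at -0.22 without MOG replicate 2 and at -0.28 without GB20 replicate 2.

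Pecam1 (CD31) and Cldn5 were singled out after their values had been seen. Pecam1 had 9.87, 11.1 and 10.2 CPM in SHAM libraries, 10.97, 13.6 and 9.19 in those of MOG, 8.45, 7.90 and 8.89 in those of GB20 and 8.32, 6.24 and 9.60 in those of GV16. Cldn5 had 11.6, 13.8 and 9.49 CPM in SHAM libraries, 13.0, 11.98 and 11.8 in those of MOG, 8.4999, 11.01 and 8.53 in those of GB20 and 11.2, 7.78 and 9.47 in those of GV16. Both were lower in every GB20 library than in any MOG library, with log2 fold changes of -0.42 (SE 0.154) and -0.40 (SE 0.152) that missed the adjusted threshold. Over the 25 tested endothelial genes, 17 estimates were below 0 in this comparison, with a median of -0.13 and a range from -0.63 to 0.25.

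GV16 was the control site. In GV16 vs. MOG no vascular gene was called (0 of 33, against 0.164% of all genes, edgeR with Benjamini-Hochberg adjustment), nor by DESeq2 on 12 or on 6 libraries, and 7 had an unadjusted p under 0.05 (Cldn5, Eng, Heg1, Icam1, Kdr, Ly6c1 and Pecam1, against 5.3%). All but Ly6c1 were lower (6, against 3.01%). GV16 lay entirely below MOG for 6 genes (Cldn5, Heg1, Icam2, Kdr, Myh11 and Plvap, against 6.45%) and above it for Ly6c1 (against 6.17%), whose reads cannot be separated with certainty from those of its near-identical neighbour Ly6c2. Again 24 of 33 estimates were below 0 (49.1% of all genes), with a median of -0.16. That median was -0.26 without GV16 replicate 1, -0.083 without GV16 replicate 2 and -0.074 by limma on log2(FPKM + 1). The 3 largest estimates were those of Icam1 (-1.04, SE 0.421, 95% interval -1.91 to -0.17), Icam2 (-0.57, SE 0.393) and Eng (-0.52, SE 0.183), with adjusted p-values of 0.839, 0.992 and 0.683 by edgeR. Icam1 was at -0.62 without GV16 replicate 3, and Eng at -0.79 without GV16 replicate 1. Icam2, a constitutive ligand of leukocyte integrins, had 0.424, 1.29 and 1.39 CPM in SHAM libraries, 1.06, 0.922 and 1.20 in those of MOG, 0.876, 0.669 and 0.974 in those of GB20 and 0.807, 0.643 and 0.681 in those of GV16. SHAM replicate 1 held the lowest of these values and lay apart from the other SHAM libraries.

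**Figure D4:**
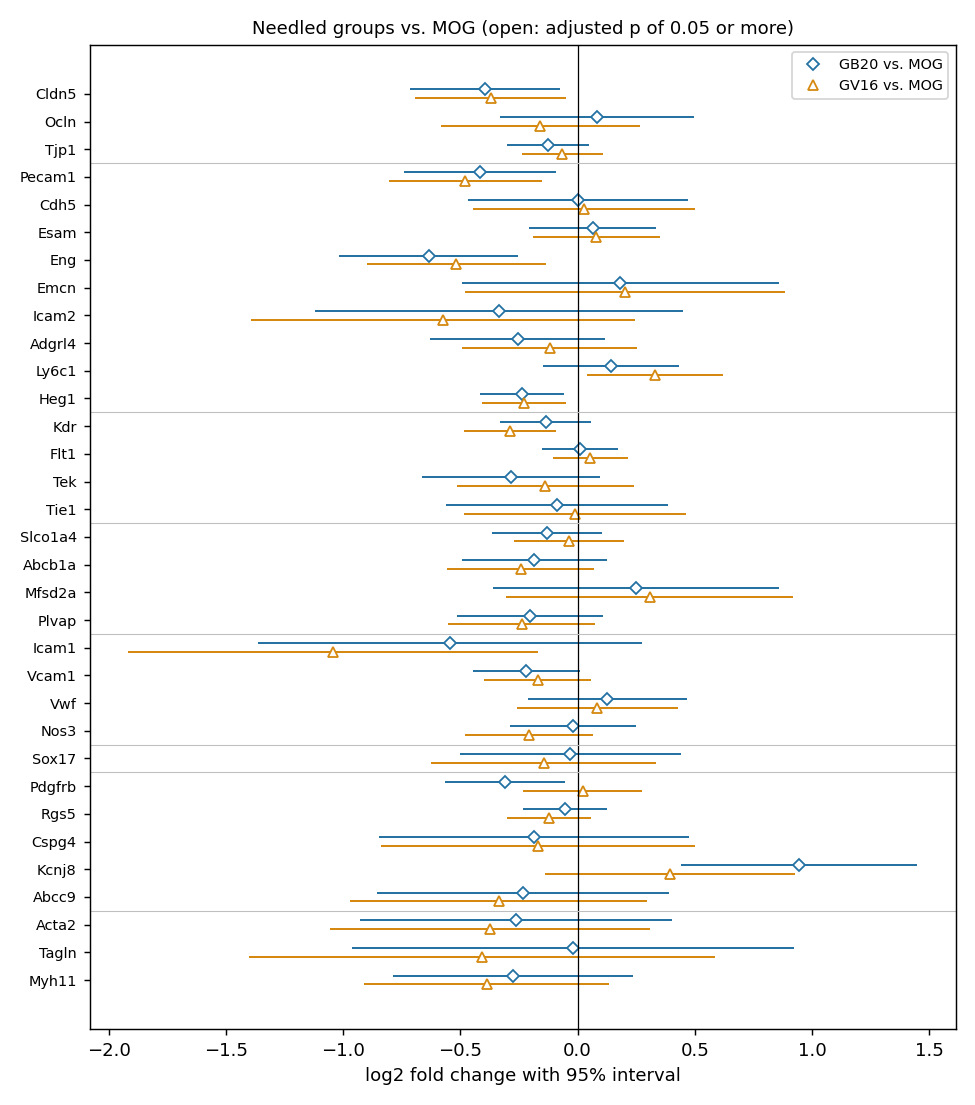
log2 fold change with 95% interval of GB20 vs. MOG (diamonds) and GV16 vs. MOG (triangles) for the 33 tested vascular genes, grouped by role. No gene passed the adjusted threshold, so every symbol is open. Kcnj8 stands furthest above 0 at GB20 (0.94) and Icam1 furthest below 0 at GV16 (-1.04). The comparisons share the MOG libraries.

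Compared directly, GB20 and GV16 retinas gave no called vascular gene (0 of 33, where 0.00546% of all genes were called, edgeR with Benjamini-Hochberg adjustment, and 0 by DESeq2 on 12 or 6 libraries), and 2 had an unadjusted p under 0.05 (Kcnj8 and Pdgfrb, against 2.93%), of which 1, Pdgfrb, was lower in GB20 (against 1.31%). GB20 lay entirely above GV16 for Kcnj8 (1 gene, against 4.03% of all genes) and entirely below it for 0 genes (against 4.32%). The log2 fold change of Kcnj8 was 0.55 (SE 0.234), followed in size by Icam1 (0.50, SE 0.440) and Tagln (0.39, SE 0.477). With 1 library left out, Icam1 lay between 0.079 (without GV16 replicate 3) and 0.98 (without GV16 replicate 1), and Tagln between 0.035 (without GV16 replicate 1) and 0.64 (without GV16 replicate 3). Pdgfrb, the PDGF receptor that pericytes depend on, had -0.33 (SE 0.122). The median over the 33 genes was -0.0080, and it was 0.10 without GV16 replicate 1 and -0.087 without GV16 replicate 2. For the 4 genes with a mean of over 1000 counts (Flt1, Heg1, Kdr and Tjp1) the interval of the difference reached from -0.20 to 0.11 for Flt1 and from -0.04 to 0.34 for Kdr, so differences beyond these bounds lie outside the 95% interval for those genes. A p that misses the threshold does not show that both sites act alike.

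Set beside SHAM, the needled groups held no called vascular gene either (0 of 33 in GB20 vs. SHAM, against 0.344% of all genes, and 0 of 33 in GV16 vs. SHAM, against 0.656%, edgeR with Benjamini-Hochberg adjustment). DESeq2 on all 12 libraries called 0 in both. At an unadjusted p under 0.05 there were 6 in GB20 vs. SHAM (against 9.06%), 5 of them lower (against 4.82%), and 8 in GV16 vs. SHAM (against 10.9%), 6 of them lower (against 5.69%). GB20 lay entirely below SHAM for 8 genes (Acta2, Adgrl4, Cdh5, Eng, Pdgfrb, Pecam1, Tek and Tie1, against 7.09%), and entirely above it for Kcnj8 and Vcam1 (against 5.66%). GV16 lay below SHAM for 5 (Acta2, Myh11, Nos3, Pecam1 and Plvap, against 7.6%) and above it for Flt1 and Vcam1 (against 6.86%). Among the largest estimates were those of Icam1 (0.65, SE 0.442), Eng (-0.61, SE 0.182) and Tie1 (-0.54, SE 0.219) in GB20, and those of Acta2 (-0.63, SE 0.319), Icam2 (-0.55, SE 0.393) and Myh11 (-0.50, SE 0.248) in GV16. In GV16, Acta2 was at -0.38 without GV16 replicate 1, and Icam2 at -0.91, -0.36 and -0.28 without SHAM replicates 1, 2 and 3. Their lowest adjusted p was 0.189 (Eng at GB20, edgeR). Estimates were below 0 for 21 of 33 genes in GB20 (49.7% of all genes) and for 23 of 33 in GV16 (51%). The medians were -0.15 and -0.20, and became -0.060 and -0.082 without SHAM replicate 3. By limma on log2(FPKM + 1) they were -0.055 and -0.069. The median of GV16 vs. SHAM was -0.28 without GV16 replicate 1 and -0.11 without GV16 replicate 2. A test over all 4 groups at once called none of the 33 genes, against 1.1% of all genes (edgeR). The lowest adjusted p in it was 0.121 for Heg1, and 11 of the vascular genes had an unadjusted p under 0.05, against 10.1% of all genes. Heg1 passed this test with the replicate number as a block (adjusted p = 0.0227, edgeR) and by DESeq2 on 12 libraries (adjusted p = 0.0317), and without SHAM replicate 3. Eng passed it without GV16 replicate 1, and both did without the filter on low counts.

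Libraries differed among themselves across the vascular genes. Counting, for each library, how many of the 33 genes lay above their own median over the 12 libraries, there were 18 to 23 in SHAM, 19 to 23 in MOG, 9 to 12 in GB20 and 23, 4 and 15 in GV16 replicates 1 to 3. GV16 replicate 2 held the lowest value of all libraries for 11 of the 33 genes. The summed CPM of the endothelial genes ran from 606 to 702 across SHAM, from 732 to 754 across MOG, from 656 to 697 across GB20 and from 630 to 706 across GV16, and Tjp1, Heg1, Kdr and Flt1 made up most of it. Without these 4 genes the sums were 155 to 167 in SHAM, 157 to 165 in MOG, 141 to 151 in GB20 and 130 to 163 in GV16 libraries. On these genes GB20 lay below SHAM and MOG in every library. The sums of a separate list of 24 further endothelial genes did not show this. They were 330 to 340, 325 to 356, 333 to 353 and 315 to 366 CPM in the same order. Podxl and Cav1 made up most of them, with GB20 means of 208 and 58.8 CPM of 346 for the list. Gene by gene, 15 of its 22 tested genes were below 0 in GB20 vs. SHAM (median -0.25, against 49.7% of all genes below 0). In GB20 vs. MOG 13 of 22 were below 0 (median -0.070, against 49.8%). The mural sums were 80.8 to 86.9 in SHAM, 81.6 to 89.0 in MOG, 78.4 to 82.5 in GB20 and 67.7 to 84.6 in GV16, with GV16 replicate 2 the lowest.

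**Figure D5:**
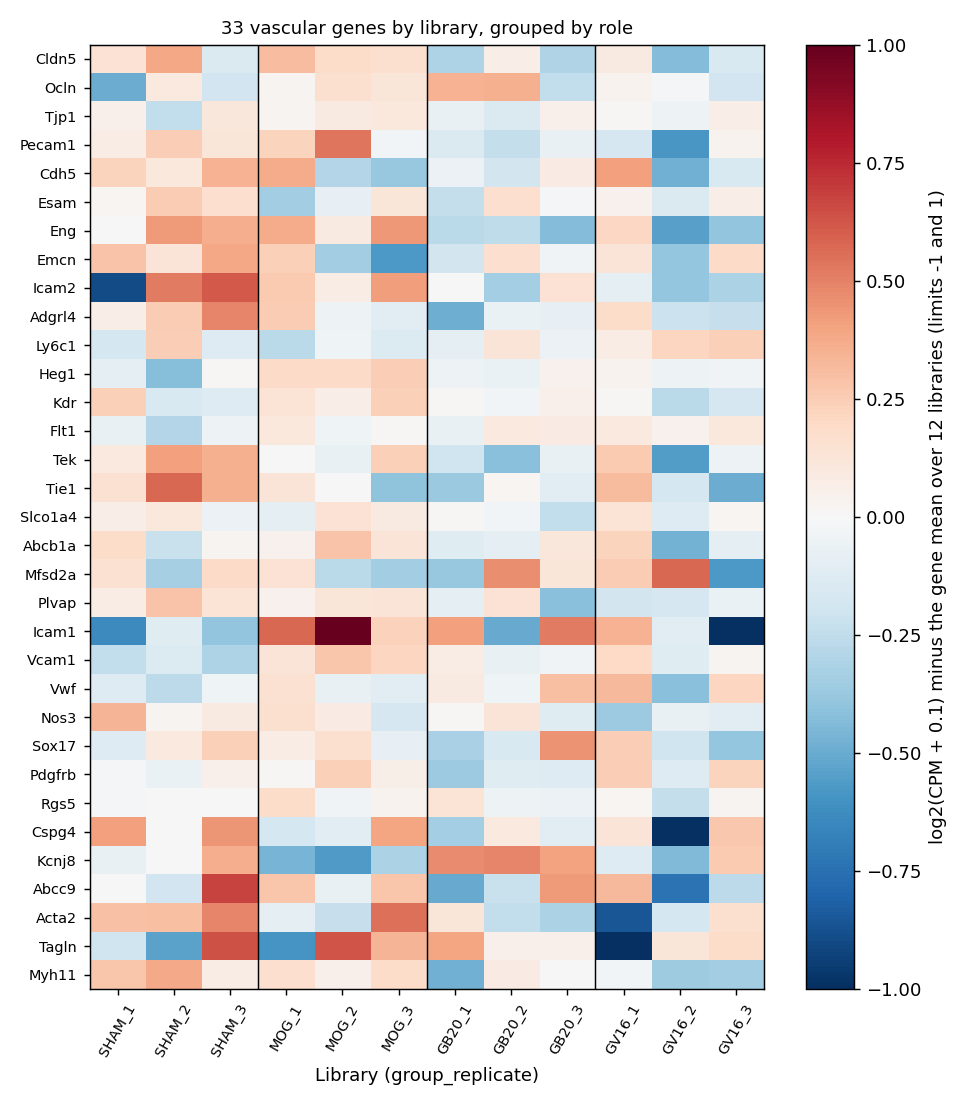
Each of the 33 tested vascular genes (rows, by role) in each of the 12 libraries (columns), coloured by log2(CPM + 0.1) minus the mean of the gene over the libraries, with the colour scale cut at -1 and 1. GV16 replicate 2 is pale to dark blue in most rows and lies above the median for 4 of the 33 genes, whereas GV16 replicate 1 does for 23.

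Markers of other cells that a dissected retina could carry moved between groups as well. The summed CPM of 11 pigment epithelium and choroid genes was 20.3 to 27.9 in SHAM libraries, 36.9 to 51.5 in those of MOG, 39.2 to 46.5 in those of GB20 and 23.5 to 63.1 in those of GV16, where the highest value was that of GV16 replicate 2 and the lowest that of replicate 1. None of the 9 tested genes of that list was called in MOG vs. SHAM. Of 4 genes listed for retinal astrocytes, Aqp4 (0.46) and Gfap (1.25) rose in MOG vs. SHAM. Which cells held their RNA was not tested. Aqp4 fell in GB20 vs. MOG (-0.35) and GV16 vs. MOG (-0.34), and Gfap was higher in GB20 vs. SHAM (1.15). These 3 calls with needled groups did not hold in every fit. That of Aqp4 was lost without any 1 MOG or GB20 library at GB20 (-0.40 to -0.31), and at GV16 without SHAM replicate 1 or any 1 MOG, GB20 or GV16 library (-0.39 to -0.30). Gfap lost its call without SHAM replicate 1 (1.07) or 3 (1.11) or GB20 replicate 2 (1.13), and with the replicate block (adjusted p = 0.0683, edgeR). The list summed to 140 to 148 CPM in SHAM libraries, 212 to 228 in those of MOG, 170 to 191 in those of GB20 and 160 to 187 in those of GV16. Leukocyte genes were near 0, with sums of 0.605 to 1.39, 1.38 to 2.33, 1.52 to 2.78 and 1.67 to 2.11 CPM in the same order, and 1 of 8 (Ptprc) was abundant enough to be tested. Erythrocyte genes lay between 6.75 and 13.3 CPM, fibroblast genes between 13.7 and 19.1 CPM (Lum had no count) and skeletal muscle genes between 5.14 and 7.59 CPM over all libraries. The part of these markers in the values of Heg1, Vcam1 and the other vascular genes was not tested.

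Further genes of the vessel wall were read from lists written beside the 34 genes. Of 22 tested further endothelial genes, 2 rose in GB20 vs. MOG and 1 of them in GV16 vs. MOG, and none was called elsewhere. Calcrl, the receptor for adrenomedullin and CGRP, had 4.18, 4.70 and 5.55 CPM in SHAM libraries, 3.25, 3.44 and 4.50 in those of MOG, 6.95, 6.87 and 6.82 in those of GB20 and 5.96, 7.39 and 7.49 in those of GV16. All 6 needled libraries lay above all SHAM and MOG libraries. Against MOG its log2 fold change was 0.88 in GB20 (SE 0.168, adjusted p = 0.0188 by edgeR) and 0.90 in GV16 (SE 0.169, adjusted p = 0.0235 by edgeR). At GB20 the call did not hold without MOG replicate 1 (0.79) or 2 (0.83), or without GB20 replicate 1 (0.88), 2 (0.89) or 3 (0.89). At GV16 it did not hold without MOG replicate 1 (0.80) or 2 (0.84), or without GV16 replicate 2 (0.85) or 3 (0.84). Cav1, the caveolae coat protein, had 59.4, 48.7 and 48.3 CPM in SHAM libraries, 46.7, 39.1 and 39.3 in those of MOG, 62.0, 54.1 and 60.3 in those of GB20 and 56.1, 52.3 and 48.3 in those of GV16. The MOG libraries held the 3 lowest values. It was 0.49 higher in GB20 vs. MOG (SE 0.0940, adjusted p = 0.0188 by edgeR), a call lost without MOG replicate 2 or 3 (0.45 each), or without GB20 replicate 1 (0.45) or 3 (0.47). All 3 calls were also lost by limma on FPKM, and that of Calcrl at GV16 by limma-voom.

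None was called in any comparison among 19 further barrier and Norrin/Wnt genes, 24 tested angiogenic ligands and receptors, 15 tested further mural genes or 9 tested further adhesion genes. The glucose carrier Slc2a1, with 165, 187 and 162 CPM in SHAM and 177, 151 and 174 CPM in MOG, and the monocarboxylate carrier Slc16a1 were the most abundant barrier genes per length. Vegfa, the ligand of Kdr and Flt1, was at 175, 199 and 204 CPM in SHAM and 197, 197 and 197 CPM in MOG. An estimate of 0.03 on the log2 scale had a 95% interval from -0.12 to 0.19. Both carriers and Vegfa overlapped between these groups. In the other lists the highest levels per length were those of Vegfa and the Notch ligand Jag1, of Vtn and Mylk, and of Ackr1 and Jam2. These are levels of whole retina, and which cells held the RNA of these listed genes was not tested. In MOG vs. SHAM 17 of the 22 further endothelial genes had estimates below 0 (median -0.25), which the 25 endothelial genes above did not share (11 below 0, median 0.028), and the difference was not tested.

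The width of the intervals depended on depth. For the 4 genes with over 1000 counts per library on average, the 95% interval of a log2 fold change reached 0.16 to 0.19 to either side of the estimate. The 14 genes with 100 to 1000 counts had 0.17 to 0.39, and the 15 genes below 100 counts, among them all smooth muscle genes, Kcnj8 and Icam1, had 0.36 to 1.002.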

How the data were processed

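Retinal RNA of 12 libraries was sequenced after poly-A enrichment. The authors aligned the reads with HISAT2 2.0.5 (build mm10, per the submitters' processing notes) used FeatureCounts to obtain a read count for each gene, and deposited these raw counts. They also deposited FPKM values, computed from each gene's count and length. The annotation release is not given in the sources used here, nor is the strand setting. Groups and replicate numbers came from the sample labels. Names, coordinates and exons came from GENCODE vM21 on GRCm38, which held 54495 of the 54532 identifiers.

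Counts were filtered with filterByExpr (18299 genes kept), scaled by TMM and fitted with edgeR 4.0.16 in R 4.3.3 on all 12 libraries, with 1 mean per group, robust quasi-likelihood dispersion, 8 residual degrees of freedom and no block. A gene was called at a Benjamini-Hochberg adjusted p under 0.05 over all tested genes, at any size of change. The 6 comparisons share libraries. Intervals are 95% intervals of the fit. CPM used TMM library sizes, and levels between genes were compared only as deposited FPKM. With totals of 15860278 to 19194280 counts, intervals widened for genes below 100 counts. Libraries of 1 group differed by more than sampling noise, so none was counted as a copy.

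The 34 genes, the further lists and the rule for genes given per library were chosen with earlier results of these data known. That rule took genes called in any test, the gene with the highest FPKM in each role, the 3 largest fold changes of each comparison, and untested genes by their counts. Alternatives were RLE scaling, no filter on low counts, DESeq2 1.42.0 and limma 3.58.1 (voom) on 12 libraries, edgeR and DESeq2 on the 6 libraries compared, limma-trend on log2(FPKM + 1) and log2(FPKM + 0.1), a replicate block, each library left out, CPM per kilobase for levels, and, added after seeing the data, removal of the exon length trend. Figures were drawn with matplotlib 3.10.9.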

Additional observations from a re-analysis of the deposited data

How the results depend on the processing

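Fold changes of called genes and the 3 largest of each comparison were followed through every alternative. Of these, the ones of Heg1 and Vcam1 in GB20 vs. GV16 changed direction, where both were near 0. There Heg1 was -0.0080 and lay between -0.044 and 0.022 with any 1 library left out, at 0.0073 without GB20 replicate 1, 0.011 without GB20 replicate 2 and 0.022 without GV16 replicate 1, and at 0.053 with the exon length trend removed. Vcam1 was -0.049 and lay between -0.12 and 0.041, the latter without GV16 replicate 1. Removal of the exon length trend also changed the direction of small estimates of other vascular genes. Among them were Plvap (-0.073 to 0.014) and Slco1a4 (0.0086 to -0.0020) in MOG vs. SHAM, and Flt1 (-0.044 to 0.022) in GB20 vs. GV16. The number of vascular genes called in MOG vs. SHAM (2) became 0 with edgeR on the 6 libraries and with limma on log2(FPKM + 1) or log2(FPKM + 0.1), and 1 (Heg1) with DESeq2 on the 6 libraries and with the length trend removed. It lay between 0 and 2 with 1 library left out. In GB20 vs. MOG it became 1 (Heg1) with DESeq2 on the 6 libraries, and in GB20 vs. SHAM 1 (Eng) without a filter on low counts. The 4-group test called 2 (Eng and Heg1) without that filter, 1 (Heg1) with DESeq2 on 12 libraries, and 0 to 1 with 1 library left out, where Heg1 was called without SHAM replicate 3 and Eng without GV16 replicate 1. The causes were not tested. GV16 vs. MOG, GB20 vs. GV16 and GV16 vs. SHAM held 0 called vascular genes under every alternative run.

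Over all genes, the number called in MOG vs. SHAM (245) lay between 91 and 427 with 1 library left out and between 106 and 539 under the other alternatives. For GB20 vs. MOG (44) these ranges were 13 to 83 and 14 to 140, for GV16 vs. MOG (30) 10 to 38 and 5 to 73, for GB20 vs. GV16 (1) 0 to 4 and 0 to 8, for GB20 vs. SHAM (63) 14 to 116 and 11 to 282, for GV16 vs. SHAM (120) 23 to 231 and 36 to 395, and for the 4-group test (201) 105 to 261 and 52 to 681.

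The methods describe 3 repeats of the experiment, but neither they nor the labels say that a replicate number marks a repeat. Of 18 pairs of libraries with the same number 3 had a correlation of deviations over 0.1 (median 0.032, against -0.015 for other pairs), and 9 of 12 libraries correlated best with their own number, a hint from the data. The rule used for pairing asked for all 18 pairs to be over 0.1, so the main fit did not treat the libraries as paired. That does not show that they are unpaired. With the replicate number as a block, 2 vascular genes were called in MOG vs. SHAM, 0 in each of the other 5 comparisons and 1 (Heg1) in the 4-group test. Over all genes the block gave 404 calls in MOG vs. SHAM, 73 in GB20 vs. MOG, 47 in GV16 vs. MOG, 1 in GB20 vs. GV16, 182 in GB20 vs. SHAM, 236 in GV16 vs. SHAM and 347 in the 4-group test. The order of levels per length was taken from FPKM, and with CPM per kilobase of merged exons each of the 34 genes moved by less than the spread between libraries. Depth limits the 15 genes below 100 counts most.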
